A study of Homo sapiens with 30 samples.

Results

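The progestin responses of T47D cells were compared between 2 perturbations, the compound ICRF and an siRNA against CEBPA, with 4 RNA-seq libraries on each side. T47D cells are a human breast cancer line of luminal type with abundant progesterone receptor, here at passages 18 to 20. These 8 libraries are the members, chosen by their titles from the 30 samples of the series. The sides share no library. For each gene, the response is the log2 fold change of progestin over untreated libraries, and the difference of responses is the ICRF response minus the siCEBPA response, so that a positive value means a higher response under ICRF.

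The 4 groups of 2 libraries were ICRF progestin, ICRF untreated, siCEBPA progestin and siCEBPA untreated. The progestin was R5020, a synthetic agonist of the receptor, given at 10 nM. The siCEBPA libraries carry the labels of a short arrest, which the protocol gives as 4 hours in charcoal-treated serum, and the time labels T360 with progestin and T0 without, with no unit. The ICRF titles name no siRNA, no arrest and no time, and the labels do not explain ICRF, a name that usually denotes catalytic inhibitors of DNA topoisomerase II. The design text of the series speaks of inhibiting topoisomerase IIα. No library of the ICRF set lacked the compound, so ICRF cannot be told apart from the arrest, the time and the other conditions of its experiment, and in the siCEBPA cells hormone and time label cannot be told apart. The siCEBPA cells still held CEBPA transcript, as given below. As context outside the comparison, 4 siControl libraries (control siRNA, same arrest and time labels as siCEBPA) entered the same fit. The labels do not say that replicates were separate cultures, so the p-values rest on the spread of libraries within a group and that spread may be technical. The series also has 18 ChIP-seq samples, not analysed here.

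The progesterone receptor is a nuclear receptor that, once bound by hormone, occupies enhancers and promoters and raises or lowers transcription of nearby genes. It does so together with pioneer and partner factors such as C/EBPα, a leucine zipper protein that opens enhancers in epithelial and fat cells. Topoisomerase II passes one DNA duplex through another and so removes the supercoils and tangles that transcription, replication and mitosis leave. ICRF compounds trap the enzyme as a closed clamp around DNA. In T47D cells progestins are known for a short burst of growth signalling through ERK kinases, followed by arrest of the cell cycle and by genes of salt transport, fat storage and glucose use.

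Total counts per library ran from 103156070 to 108066269 in the ICRF set and from 57364785 to 70704799 in the siCEBPA set, so the ICRF side was counted more deeply. Levels are counts scaled to library size after TMM normalization (CPM), which do not correct for gene length, and are given for replicates 1 and 2 in turn. KRT8, a keratin of luminal cells, had 2507 and 2309 CPM in ICRF progestin libraries, against 3983 and 3959 CPM in ICRF untreated libraries. It had 1658 and 1705 CPM in siCEBPA progestin libraries, against 1864 and 1844 CPM in siCEBPA untreated libraries. Of 15 fibroblast, endothelial and blood cell genes, 9 passed the filter on low counts. COL1A1, a fibrillar collagen, was the highest of them, with 30.1 and 26.6 CPM in ICRF progestin libraries and 55.8 and 64.5 CPM in siCEBPA progestin libraries. LUM, a matrix proteoglycan, followed, with 1.6 and 2.13 CPM in ICRF progestin libraries and 3.48 and 3.27 CPM in siCEBPA progestin libraries, and the other 7 averaged below 1 CPM in every group. In bulk RNA, fewer cells of a kind and less RNA per cell cannot be told apart.

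CEBPA, the target of the siRNA, encodes C/EBPα and lies on chromosome 19, 33299934 to 33302564 (hg38, as are all gene positions here). It had 89.7 and 87.3 CPM in ICRF progestin libraries, against 38.1 and 38.3 CPM in ICRF untreated libraries. In the siCEBPA set it had 57.5 and 62.2 CPM in siCEBPA progestin libraries, against 10.7 and 12.1 CPM in siCEBPA untreated libraries, and in siControl 207 and 204 CPM in siControl progestin libraries, against 47.7 and 54.4 CPM in siControl untreated libraries. Untreated siCEBPA cells thus had less CEBPA transcript than untreated ICRF or siControl cells, and with progestin they had more than any untreated group. The gene rose with hormone on both sides, by 1.21 ± 0.06 under ICRF and by 2.40 ± 0.07 in siCEBPA cells, a difference of -1.18 ± 0.09 (edgeR quasi-likelihood test, adjusted p = 1.34e-09). No transcript reports on the action of ICRF itself. TOP2A, the isoform of dividing cells, had 1527 and 1596 CPM in ICRF progestin libraries, against 1247 and 1225 CPM in ICRF untreated libraries, and 546 and 519 CPM in siCEBPA progestin libraries, against 709 and 633 CPM in siCEBPA untreated libraries. It rose under ICRF (0.34 ± 0.05) and fell in siCEBPA cells (-0.33 ± 0.05). TOP2B, the isoform of all cells, responded by -0.17 under ICRF and 0.00 in siCEBPA cells.

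The comparison asked which hormone responses were kept under one perturbation and missing under the other. Of 19003 genes tested, 4478 had a higher response under ICRF (23.6% of genes) and 4797 a lower one (25.2%), at an adjusted p under 0.05 in edgeR's quasi-likelihood test with Benjamini-Hochberg adjustment. Under ICRF 5800 genes rose (30.5%) and 5080 fell (26.7%) with progestin. In siCEBPA cells 5683 rose (29.9%) and 5206 fell (27.4%), and in siControl cells 5612 rose (29.5%) and 5342 fell (28.1%). Both sides called 7518 genes, which is 69.1% of the ICRF calls and 69.0% of the siCEBPA calls. Of these, 5337 moved the same way (2932 up, 2405 down) and 2181 moved in opposite directions. Another 3362 were called only under ICRF and 3371 only in siCEBPA cells, which alone does not show that the responses differed. Genes are no independent replicates, and as a description the responses correlated across the 19003 genes with a Pearson r of 0.561.

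Most calls were under 2-fold, so the kept and missing responses were defined by size. A response is called kept here when it passed the test and was at least 2-fold. It is called flat when its whole 95% interval lay within 1.5-fold in either direction, which a small response that passed the test can also satisfy. Where one side was kept and the other flat, the difference of responses also had to pass. By this rule 173 genes rose (0.91% of the genes tested) and 133 fell (0.7%) under ICRF with a flat siCEBPA response. In siCEBPA cells 274 rose (1.44%) and 148 fell (0.779%) with a flat ICRF response. A further 183 genes (0.963%) rose under ICRF and fell in siCEBPA cells, and 119 (0.626%) did the reverse, each side by at least 1.5-fold. Kept on both sides, with the interval of the difference within 1.5-fold, were 111 rises (0.584%) and 68 falls (0.358%). Membership rests on the values described, so the sizes within a class are a description. At the bound of 2-fold, FAM234B lay just inside the ICRF rises (1.002) and ZFTA just outside (1.0), and RAPGEF2 just inside the siCEBPA rises (1.002) and CISH just outside (0.999). Within 0.1 log2 of the bound lay 64 of the 173 and 61 of the 274 genes.

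The scaling moved the balance of directions. Without scaling factors the median over all genes stood at 0.16 in the difference of responses and at -0.20 in the siCEBPA response, against 0.001 and -0.02 with TMM. Higher values then made up 64.1% of the calls of the difference (48.3% with TMM) and 33.4% of the siCEBPA calls (52.2% with TMM). With upper quartile scaling the siCEBPA share was 37.8%. The siControl share of 51.2% moved to 34.1% and 38.1% under these scalings. The class of siCEBPA falls that were flat under ICRF grew to 250 genes without scaling factors, and the opposite classes stood at 275 and 77 genes. No gene called in both fits changed the sign of its difference.

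**Figure D1:**
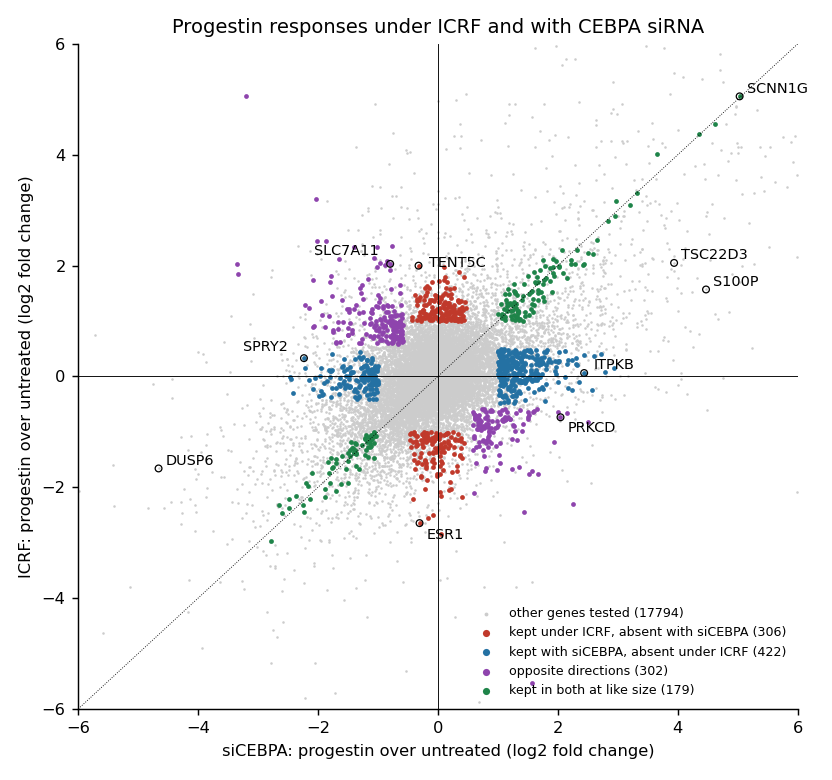
Progestin response under ICRF (vertical axis) against that in siCEBPA cells (horizontal axis), log2 fold change, 1 point per gene tested. Red points were kept under ICRF only (306 genes), blue in siCEBPA cells only (422), purple moved in opposite directions (302) and green were kept on both sides at like size (179). In the legend, absent stands for a flat response. The dotted line marks equal responses, and 91 genes lie outside the axes.

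Among genes above 5 CPM, those that rose under ICRF with a flat siCEBPA response were led by TENT5C, a poly(A) polymerase of the non-canonical kind, on chromosome 1, 117605934 to 117628372. It had 26.9 and 28.6 CPM in ICRF progestin libraries, against 7.14 and 6.75 CPM in ICRF untreated libraries. The siCEBPA libraries gave 18.3 and 18.8 CPM in siCEBPA progestin libraries, against 23.1 and 23.4 CPM in siCEBPA untreated libraries. The ICRF groups did not overlap and rose by 2.00 ± 0.07, while the siCEBPA response was -0.32 ± 0.07, a difference of 2.32 ± 0.09 (adjusted p = 5.65e-14). The untreated ICRF libraries held less TENT5C than any other group. Its siControl response was -0.89 ± 0.07, with 10.1 and 10.3 CPM in siControl progestin libraries, against 19.3 and 18.6 CPM in siControl untreated libraries. KLHL24, a ubiquitin ligase adaptor that acts on keratins, had 116 and 122 CPM in ICRF progestin libraries, against 44.8 and 45.4 CPM in ICRF untreated libraries, and 33.6 and 29.1 CPM in siCEBPA progestin libraries, against 41.8 and 38.3 CPM in siCEBPA untreated libraries.

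Other leading genes of this class were MOSPD2 (1.47 under ICRF and -0.38 in siCEBPA cells), a tether between the endoplasmic reticulum and other organelles, GDPD1 (1.64 under ICRF and -0.19 in siCEBPA cells), HAP1 (1.70 under ICRF and -0.10 in siCEBPA cells), which binds huntingtin, and CLDND1 (1.59 under ICRF and -0.16 in siCEBPA cells). Over the 173 genes the median response was 1.16 under ICRF and 0.08 in siCEBPA cells, and 91 of the flat responses did not pass the test. In siControl cells, which the class does not use, 0 of the 173 rose by 2-fold, against 8.1% of all genes tested. There 120 (69.4%) were flat, against 40.4% of all genes. A flat response is easier to show at higher levels, and the rule had already chosen such genes. Their median was 26.9 CPM in the highest group, against 14.4 CPM over all genes. The siControl libraries also share the arrest and the time labels of the siCEBPA set.

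ESR1, the estrogen receptor α gene, on chromosome 6, 151656691 to 152129619, was among the largest falls under ICRF with a flat siCEBPA response. It had 26.9 and 27.2 CPM in ICRF progestin libraries, against 175 and 165 CPM in ICRF untreated libraries. With the siRNA against CEBPA, it had 128 and 129 CPM in siCEBPA progestin libraries, against 163 and 155 CPM in siCEBPA untreated libraries, and in siControl 102 and 104 CPM in siControl progestin libraries, against 159 and 149 CPM in siControl untreated libraries. The untreated groups were close in level, and the ICRF progestin libraries stood far below all others. ESR1 fell by 2.65 ± 0.05 on the log2 scale under ICRF and by 0.31 ± 0.04 in siCEBPA cells, a difference of -2.34 ± 0.06 (adjusted p = 4.31e-16). AFF3, a factor of transcript elongation complexes, had 20 and 20.8 CPM in ICRF progestin libraries, against 87.1 and 86 CPM in ICRF untreated libraries, and 94.5 and 95.5 CPM in siCEBPA progestin libraries, against 95.4 and 89.7 CPM in siCEBPA untreated libraries. ZHX2, a zinc finger and homeobox repressor, had 2.94 and 2.86 CPM in ICRF progestin libraries, against 12.9 and 13.5 CPM in ICRF untreated libraries, and 11.7 and 12.4 CPM in siCEBPA progestin libraries, against 9.62 and 8.72 CPM in siCEBPA untreated libraries. The promoter window of ESR1 is shown because it holds the short half-site of steroid receptors, TGTTCT, in capitals. It is the RefSeq window chr6:151656422-151656721, plus strand, GRCh38.p14, at 1 of 6 listed starts. This window and those given for other classes were picked after the values were seen, among named genes of a class with a match on either strand. They are examples, not always from the gene with the largest difference, and not every class has a window here.
ESR1: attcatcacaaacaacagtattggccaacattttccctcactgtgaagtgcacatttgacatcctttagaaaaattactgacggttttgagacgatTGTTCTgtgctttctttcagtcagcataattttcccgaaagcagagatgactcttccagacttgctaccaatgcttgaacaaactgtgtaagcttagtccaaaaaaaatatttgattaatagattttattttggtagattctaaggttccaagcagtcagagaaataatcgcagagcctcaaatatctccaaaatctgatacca

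Other falls of this class were those of SAMD11 (-2.05 under ICRF and 0.18 in siCEBPA cells), KMO (-2.16 under ICRF and 0.06 in siCEBPA cells), an enzyme of tryptophan breakdown, EDARADD (-1.91 under ICRF and 0.20 in siCEBPA cells), the adaptor of the ectodysplasin receptor, DHRS3 (-1.71 under ICRF and 0.32 in siCEBPA cells), which reduces retinaldehyde, and the long non-coding RNA MILIP (-2.04 under ICRF and 0.21 in siCEBPA cells). The median over the 133 genes was -1.25 under ICRF and -0.07 in siCEBPA cells. In progestin libraries 87 of the 133 stood over 2-fold lower in ICRF than in siCEBPA, against 2729 of all 19003 genes. In untreated libraries 8 did so, against 2161 of all genes. The class was chosen on a lower response under ICRF, so a gap of this kind is partly built in and the counts are a description. In siControl cells 1 of the 133 fell by 2-fold, against 7.95% of all genes, and 86 (64.7%) were flat, against 40.4%. These genes, too, were of higher level, with a median of 29.2 CPM in the highest group, so the same limits hold.

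Rises of siCEBPA cells that were flat under ICRF numbered 274, and 183 without scaling factors. ITPKB, a kinase of inositol trisphosphate, on chromosome 1, 226631690 to 226739323, had 33.9 and 31.6 CPM in ICRF progestin libraries, against 31.7 and 31.1 CPM in ICRF untreated libraries. On the siCEBPA side it had 150.5 and 167 CPM in siCEBPA progestin libraries, against 30 and 28.5 CPM in siCEBPA untreated libraries. The ICRF libraries all lay close together, next to the untreated siCEBPA level. ITPKB was not called under ICRF (0.06 ± 0.05) and rose by 2.44 ± 0.05 in siCEBPA cells, a difference of -2.38 ± 0.07 (adjusted p = 2.53e-15). ST3GAL4, a sialyltransferase, had 50.4 and 49.8 CPM in ICRF progestin libraries, against 38 and 39.5 CPM in ICRF untreated libraries, and 237 and 246 CPM in siCEBPA progestin libraries, against 40.7 and 39.2 CPM in siCEBPA untreated libraries. TCF7L1, a repressor at Wnt target genes, had 16.8 and 16.9 CPM in ICRF progestin libraries, against 18.8 and 20 CPM in ICRF untreated libraries, and 82.8 and 92.9 CPM in siCEBPA progestin libraries, against 19.6 and 19.6 CPM in siCEBPA untreated libraries.

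CECR2, a bromodomain protein, responded by -0.25 under ICRF and 2.57 in siCEBPA cells. PLEKHO1 had responses of 0.08 under ICRF and 2.79 in siCEBPA cells, S1PR5, a receptor of sphingosine 1-phosphate, of -0.24 under ICRF and 2.23 in siCEBPA cells, SEPTIN5 of 0.40 under ICRF and 2.72 in siCEBPA cells, and FHOD1, a formin of the actin skeleton, of -0.44 under ICRF and 1.79 in siCEBPA cells. Of the 274 genes, 203 (74.1%) also rose by at least 2-fold in siControl cells, against 8.1% of all genes tested, and 2 were flat there. Their median response was 0.14 under ICRF, 1.30 in siCEBPA and 1.26 in siControl cells. In progestin libraries 154 of them stood over 2-fold lower in ICRF than in siCEBPA and 1 higher, against 2729 lower and 2162 higher of all 19003 genes. In untreated libraries 3 stood over 2-fold lower in ICRF and 20 higher, against 2161 lower and 1191 higher of all genes. The siControl libraries share the arrest and the time labels of the siCEBPA set, so their likeness to it cannot be told apart from the experiment.

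SPRY2, an inhibitor of receptor tyrosine kinase signalling that ERK itself induces, on chromosome 13, 80335976 to 80340951, led the falls of siCEBPA cells that were flat under ICRF. It had 5.45 and 5.99 CPM in ICRF progestin libraries, against 4.56 and 4.54 CPM in ICRF untreated libraries. Its siCEBPA levels were 3.64 and 4.15 CPM in siCEBPA progestin libraries, against 18.8 and 17.8 CPM in siCEBPA untreated libraries. Untreated ICRF cells already stood near the level of siCEBPA cells with progestin. SPRY2 rose by 0.33 ± 0.09 under ICRF and fell by 2.24 ± 0.10 on the log2 scale in siCEBPA cells, a difference of 2.57 ± 0.13 (adjusted p = 2.38e-12). NR4A1, an orphan nuclear receptor and immediate early gene, had 8.15 and 8.57 CPM in ICRF progestin libraries, against 8.39 and 9.1 CPM in ICRF untreated libraries, and 4.29 and 4.89 CPM in siCEBPA progestin libraries, against 19.8 and 20.8 CPM in siCEBPA untreated libraries. GPR37, an orphan G protein-coupled receptor, had 7.63 and 7.42 CPM in ICRF progestin libraries, against 7.59 and 7.51 CPM in ICRF untreated libraries, and 4.42 and 4.67 CPM in siCEBPA progestin libraries, against 15.3 and 16.5 CPM in siCEBPA untreated libraries. A window of SPRY2, chr13:80340059-80340358, minus strand, GRCh38.p14, holds the same half-site in capitals although the direction and side of the response differ from those of ESR1.
SPRY2: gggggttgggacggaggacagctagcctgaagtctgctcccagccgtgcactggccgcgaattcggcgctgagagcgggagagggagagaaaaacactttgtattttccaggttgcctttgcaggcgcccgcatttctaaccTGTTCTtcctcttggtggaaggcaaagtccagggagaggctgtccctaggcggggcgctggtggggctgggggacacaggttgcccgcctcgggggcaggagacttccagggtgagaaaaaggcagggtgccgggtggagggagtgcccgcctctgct

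PAX9, a paired box factor (0.41 under ICRF and -1.76 in siCEBPA cells), IFIT2, an interferon-induced RNA-binding protein (-0.30 under ICRF and -2.42 in siCEBPA cells), KCNK5, a potassium leak channel (0.11 under ICRF and -1.81 in siCEBPA cells), and FRMD6, a member of the Hippo pathway (-0.22 under ICRF and -2.09 in siCEBPA cells), had the same pattern. GTF2IRD2B was also named by the rule (0.32 under ICRF and -1.56 in siCEBPA cells), but it has a near-identical copy and its counts are uncertain. In siControl cells 102 of the 148 genes (68.9%) fell by at least 2-fold, against 7.95% of all genes, and 1 was flat. This class held genes of low level, with a median of 9.9 CPM in the highest group, against 14.4 CPM over all genes. Untreated levels differed for part of it: 36 of the 148 stood over 2-fold lower in ICRF than in siCEBPA untreated libraries, against 2161 of all 19003 genes.

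Genes that moved in opposite directions included SLC7A11, the cystine importer, on chromosome 4, 138164097 to 138242349. It had 92.7 and 91 CPM in ICRF progestin libraries, against 22 and 22.9 CPM in ICRF untreated libraries. In the siCEBPA set it had 17.6 and 14.7 CPM in siCEBPA progestin libraries, against 27.5 and 28.6 CPM in siCEBPA untreated libraries. The groups of each side did not overlap, and the sides differed in direction. SLC7A11 rose by 2.03 ± 0.07 under ICRF and fell by 0.80 ± 0.07 on the log2 scale in siCEBPA cells, a difference of 2.83 ± 0.10 (adjusted p = 2.21e-14). SP4, a zinc finger factor of GC boxes, had the largest difference of this class among genes above 5 CPM (3.31 ± 0.12), with 22 and 23.2 CPM in ICRF progestin libraries, against 8.91 and 8.67 CPM in ICRF untreated libraries, and 3.1 and 3.13 CPM in siCEBPA progestin libraries, against 12.4 and 11.6 CPM in siCEBPA untreated libraries. EFNB2, an ephrin ligand, responded by 0.90 under ICRF and -2.09 in siCEBPA cells, ZNF365 by 2.00 under ICRF and -0.89 in siCEBPA cells, TMEM47 by 1.76 under ICRF and -1.17 in siCEBPA cells, and HELB, a DNA helicase, by 1.45 under ICRF and -1.77 in siCEBPA cells. Of these 183 genes 97 reached 5 CPM in a group, against 11455 of all 19003 genes. By at least 2-fold, 48 (26.2%) fell in siControl cells, against 7.95% of all genes.

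In the reverse direction stood PRKCD, the δ isoform of protein kinase C, on chromosome 3, 53156009 to 53192717. It had 19.3 and 20.1 CPM in ICRF progestin libraries, against 32.1 and 33.6 CPM in ICRF untreated libraries. In the siCEBPA set it had 54.9 and 58.5 CPM in siCEBPA progestin libraries, against 14.1 and 13.4 CPM in siCEBPA untreated libraries. The untreated levels were themselves apart, with siCEBPA lower than ICRF, and the order was reversed in progestin libraries. PRKCD fell by 0.74 ± 0.06 on the log2 scale under ICRF and rose by 2.04 ± 0.06 in siCEBPA cells (difference -2.78 ± 0.08, adjusted p = 8.65e-16). FJX1, a secreted protein, had 45.5 and 44 CPM in ICRF progestin libraries, against 69.1 and 72.4 CPM in ICRF untreated libraries, and 176 and 195 CPM in siCEBPA progestin libraries, against 40.9 and 42.6 CPM in siCEBPA untreated libraries. CXXC5, a CXXC zinc finger protein, had 36.7 and 35 CPM in ICRF progestin libraries, against 95.8 and 95.4 CPM in ICRF untreated libraries, and 140.5 and 155 CPM in siCEBPA progestin libraries, against 74.1 and 71.2 CPM in siCEBPA untreated libraries. The other genes named were CACNG4 (-0.65 under ICRF and 1.99 in siCEBPA cells), NIPAL4 (-1.71 under ICRF and 0.78 in siCEBPA cells), TSKU (-1.65 under ICRF and 0.81 in siCEBPA cells), RAI1 (-1.14 under ICRF and 1.23 in siCEBPA cells) and SRRM3 (-0.86 under ICRF and 1.43 in siCEBPA cells). Of the 119 genes, 34 (28.6%) rose by at least 2-fold in siControl cells, against 8.1% of all genes. A window of PRKCD, chr3:53168453-53168752, plus strand, GRCh38.p14, 1 of 3 listed for the gene, holds the C/EBP motif TTGCNNAA, in capitals.
PRKCD: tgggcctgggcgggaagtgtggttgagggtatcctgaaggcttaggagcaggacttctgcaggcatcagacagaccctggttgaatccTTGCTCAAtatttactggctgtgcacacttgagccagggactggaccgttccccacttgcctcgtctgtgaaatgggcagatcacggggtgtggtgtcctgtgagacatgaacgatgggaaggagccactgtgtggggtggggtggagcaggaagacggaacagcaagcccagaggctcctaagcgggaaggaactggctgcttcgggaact

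The responses kept on both sides at like size were fewer than those kept on 1 side, but the rules of these classes are not alike. Genes kept on both sides at unlike size, such as TSC22D3 (2.05 under ICRF and 3.94 in siCEBPA cells), are in no class. The counts thus do not say that shared responses were rarer than those of 1 side. NDRG1, a stress and hormone response gene, had 42.7 and 41 CPM in ICRF progestin libraries, against 2.63 and 2.57 CPM in ICRF untreated libraries. In the siCEBPA set it had 68.9 and 73 CPM in siCEBPA progestin libraries, against 5.64 and 5.6 CPM in siCEBPA untreated libraries. The responses were 4.01 ± 0.08 under ICRF and 3.66 ± 0.08 in siCEBPA cells, and the difference of 0.35 ± 0.11 passed the test (adjusted p = 0.0122) but lay within 1.5-fold. SYBU, a linker of vesicles to kinesin, responded by 3.16 under ICRF and 2.97 in siCEBPA cells. SCNN1G, the γ subunit of the epithelial sodium channel, responded by 5.05 under ICRF and 5.03 in siCEBPA cells, and LOX, the collagen crosslinking enzyme, by 3.30 under ICRF and 3.33 in siCEBPA cells. Both are low in untreated cells, and with standard errors taken from the fitted weights their intervals of the difference, -0.74 to 0.78 for SCNN1G and -0.62 to 0.57 for LOX, reach past 1.5-fold.

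Among the falls of like size was GRHL3, a grainyhead factor of epithelial barriers, on chromosome 1, 24319322 to 24364482. It had 4.71 and 4.07 CPM in ICRF progestin libraries, against 23.3 and 25.3 CPM in ICRF untreated libraries. In the siCEBPA set it had 3.06 and 3.66 CPM in siCEBPA progestin libraries, against 18.5 and 22.1 CPM in siCEBPA untreated libraries. Both sides fell to about the same level, by 2.47 ± 0.11 on the log2 scale under ICRF and by 2.60 ± 0.12 in siCEBPA cells, and the 95% interval of the difference ran from -0.21 to 0.48. NCMAP (-2.97 under ICRF and -2.79 in siCEBPA cells), SIPA1, a GTPase-activating protein for Rap (-2.38 under ICRF and -2.48 in siCEBPA cells), and FGD3, an exchange factor for Cdc42 (-2.32 under ICRF and -2.65 in siCEBPA cells), followed. In siControl cells 89 of the 111 like-size rises (80.2%) and 56 of the 68 falls (82.4%) also passed 2-fold. Over all genes these shares were 8.1% and 7.95%. A window of GRHL3, chr1:24322790-24323089, plus strand, GRCh38.p14, 1 of 2 listed, holds the C/EBP motif at 2 places, in capitals.
GRHL3: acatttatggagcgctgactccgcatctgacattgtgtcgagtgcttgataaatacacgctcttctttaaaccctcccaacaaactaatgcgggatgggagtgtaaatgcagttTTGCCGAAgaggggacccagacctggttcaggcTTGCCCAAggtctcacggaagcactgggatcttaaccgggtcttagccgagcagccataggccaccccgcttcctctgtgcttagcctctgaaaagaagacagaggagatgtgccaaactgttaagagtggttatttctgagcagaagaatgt

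**Figure D2:**
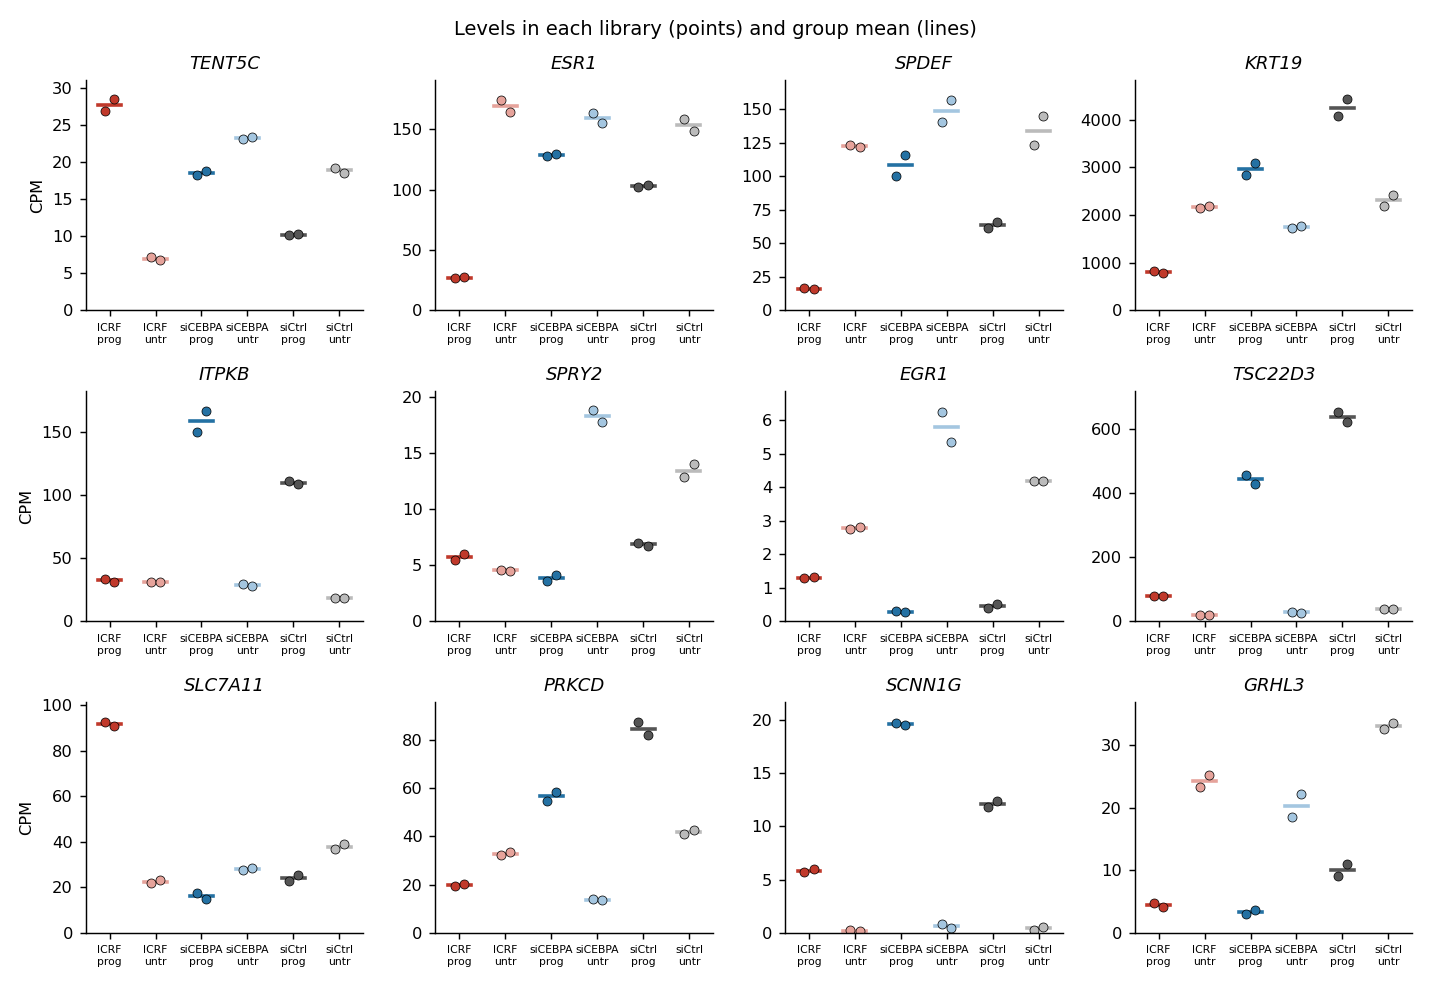
Level in CPM (vertical axes, from 0) of 12 genes in every library (points) with the group mean (lines), for progestin and untreated libraries of ICRF, siCEBPA and siControl. ESR1 and SPDEF are lowest in ICRF progestin libraries, ITPKB is high in siRNA progestin libraries, SLC7A11 moves in opposite directions, and GRHL3 falls in every arm.

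**Figure D3:**
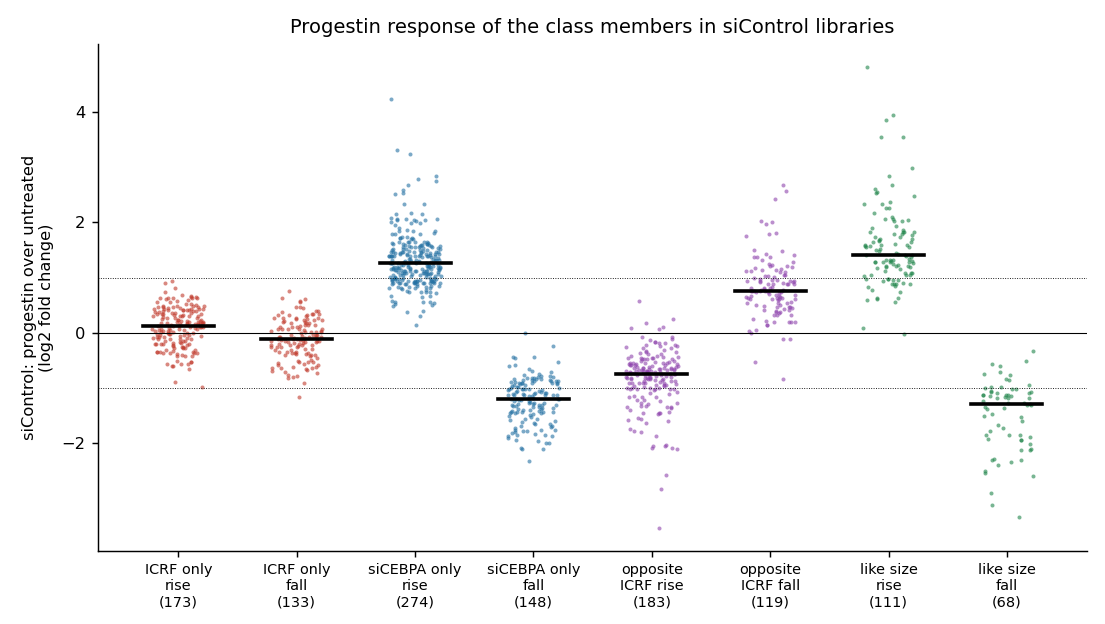
Progestin response in siControl libraries (log2 fold change, vertical axis) of each member of the 8 classes (points), with the class median (bars) and the number of genes in brackets. Dotted lines mark 2-fold. Medians are 0.12 and -0.11 for genes kept under ICRF only, 1.26 and -1.20 for genes kept in siCEBPA cells only, and 1.42 and -1.30 for genes kept in both.

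Promoter windows were compared between the classes as a description. TGTTCT, on either strand, occurred in 10.2% of the 18032 windows of genes tested and TTGCNNAA, on either strand, in 7.79%. The motifs were counted apart, also where they overlapped. Of the 165 windows of the ICRF-only rises 2.42% held the half-site and 3.03% the C/EBP motif. The ICRF-only falls had shares of 7.98% and 8.59%, the siCEBPA-only rises 8.59% and 5.82%, and the siCEBPA-only falls 9.09% and 13.1%. Genes that rose under ICRF and fell in siCEBPA cells had 8.82% for each motif, and those of the reverse pattern 7.41% for each. Among like-size genes the shares were 9.3% and 4.65% for rises and 9.2% and 10.3% for falls. Windows of 1 gene are not independent, and a match is a run of letters and not a bound site.

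The counts of the gene lists below are to be read beside the shares over all 19003 genes. Of these, 23.6% had a higher and 25.2% a lower response under ICRF. Under ICRF 30.5% rose and 26.7% fell, and in siCEBPA cells 29.9% rose and 27.4% fell. The siControl shares were 29.5% and 28.1%. No list was tested as a set, and counts near these shares are no result about a list. The receptors of the hormone and its relatives came first among the gene lists. All 6 steroid receptor genes were tested: 5 fell and 0 rose under ICRF, 6 fell in siCEBPA cells, and the difference was called lower for 4 and higher for 1. PGR, the progesterone receptor gene, on chromosome 11, 101029624 to 101130524, had 250.5 and 257 CPM in ICRF progestin libraries, against 960.5 and 961 CPM in ICRF untreated libraries. It had 386 and 379 CPM in siCEBPA progestin libraries, against 849 and 843 CPM in siCEBPA untreated libraries. PGR fell on both sides and further under ICRF (difference -0.77 ± 0.05, adjusted p = 2.39e-11). NR3C1, the glucocorticoid receptor, responded by -0.97 under ICRF and -0.44 in siCEBPA cells. NR3C2, the mineralocorticoid receptor, was the exception, with responses of 0.17 under ICRF and -1.18 in siCEBPA cells and levels of 5.14 and 5.13 CPM in ICRF progestin libraries, against 4.37 and 4.79 CPM in ICRF untreated libraries.

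Progestin-induced genes mostly kept their direction under ICRF, and many rose less there. Of 29 progestin-induced genes tested, 22 rose and 6 fell under ICRF and 25 rose and 3 fell in siCEBPA cells. Not all bore out the name of the list in siControl cells, where 23 rose and 4 fell. The difference was lower under ICRF for 18 and higher for 4, with a median of -0.85, against a median of 0.001 over all genes. TSC22D3, the gene of GILZ, a zipper protein of glucocorticoid action, had 79.6 and 78.8 CPM in ICRF progestin libraries, against 19.8 and 18.5 CPM in ICRF untreated libraries, and 456 and 427 CPM in siCEBPA progestin libraries, against 29.9 and 27.6 CPM in siCEBPA untreated libraries. It rose on both sides, by 2.05 ± 0.05 under ICRF and 3.94 ± 0.05 in siCEBPA cells. FKBP5, a co-chaperone of steroid receptors, had 278 and 279 CPM in ICRF progestin libraries, against 116 and 112 CPM in ICRF untreated libraries, and 575 and 569 CPM in siCEBPA progestin libraries, against 114 and 109.9 CPM in siCEBPA untreated libraries. The untreated levels of FKBP5 overlapped between the sides, and the difference was -1.07 ± 0.05. S100P, a calcium-binding protein, responded by 1.57 under ICRF and 4.47 in siCEBPA cells, and HSD11B2, which inactivates cortisol, by 1.36 under ICRF and 2.71 in siCEBPA cells.

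Responses of PER1 and KLF9 were kept. PER1, a clock gene with hormone response elements, had 18.8 and 15.9 CPM in ICRF progestin libraries, against 6.21 and 6.13 CPM in ICRF untreated libraries, and 17.4 and 18.4 CPM in siCEBPA progestin libraries, against 5.92 and 6.58 CPM in siCEBPA untreated libraries. Its responses of 1.49 under ICRF and 1.52 in siCEBPA cells were of like size. KLF9, a Krüppel-like repressor, responded by 1.53 under ICRF and 1.27 in siCEBPA cells, and neither difference passed the test. DUSP1, a phosphatase of MAP kinases, responded by 0.84 under ICRF and 1.06 in siCEBPA cells, with an adjusted p of 0.0589 for the difference. STAT5A, a signal transducer of prolactin, was flat under ICRF (0.27) and rose in siCEBPA cells (1.65). WNT4, a paracrine signal of the mammary gland, fell under ICRF and rose in siCEBPA cells (-1.11 under ICRF and 0.53 in siCEBPA cells). The receptor gene PRLR did likewise (-0.90 under ICRF and 0.18 in siCEBPA cells), but it also fell in siControl cells (-0.28).

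Of 9 C/EBP and Tribbles genes tested, 6 had a lower response under ICRF, 0 a higher one and 3 were not called. CEBPB, a relative of CEBPA, had 15.5 and 14.3 CPM in ICRF progestin libraries, against 14.1 and 12.5 CPM in ICRF untreated libraries, and 11.2 and 11.9 CPM in siCEBPA progestin libraries, against 4.37 and 4.19 CPM in siCEBPA untreated libraries. It was flat under ICRF (0.17 ± 0.08) and rose in siCEBPA cells (1.43 ± 0.09). CEBPD responded by 1.08 under ICRF and 2.90 in siCEBPA cells and CEBPG by 0.70 under ICRF and 1.26 in siCEBPA cells. TRIB2, a pseudokinase that triggers loss of C/EBPα, was also called lower, but had 0.157 and 0.173 CPM in ICRF progestin libraries and was at 0 in both siCEBPA untreated libraries, so that no fold is given.

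Genes of ERK signalling moved in both directions on each side. Of 31 feedback and immediate early genes, 7 rose and 17 fell under ICRF and 9 rose and 16 fell in siCEBPA cells. The difference was higher for 12 and lower for 8, with a median of 0.24. DUSP6, a phosphatase specific for ERK and a gauge of its activity, had 2.83 and 3.54 CPM in ICRF progestin libraries, against 9.53 and 10.6 CPM in ICRF untreated libraries, and 0.858 and 1.41 CPM in siCEBPA progestin libraries, against 28.8 and 28.1 CPM in siCEBPA untreated libraries. It fell by 1.66 ± 0.12 on the log2 scale under ICRF and by 4.66 ± 0.15 in siCEBPA cells. EGR1, an immediate early zinc finger factor, had 1.29 and 1.33 CPM in ICRF progestin libraries, against 2.76 and 2.82 CPM in ICRF untreated libraries, and 0.305 and 0.287 CPM in siCEBPA progestin libraries, against 6.24 and 5.33 CPM in siCEBPA untreated libraries. Both genes stood lower in ICRF than in siCEBPA untreated libraries, and higher in ICRF than in siCEBPA progestin libraries. SPRY1 and PHLDA1, inhibitors of growth factor and AKT signalling, were flat under ICRF (-0.20 and -0.38) and fell in siCEBPA cells (-1.76 and -1.78).

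Not all feedback genes were split. DUSP4, a nuclear ERK phosphatase, fell on both sides at like size (-2.21 under ICRF and -2.48 in siCEBPA cells), as did DUSP5 (-1.44 under ICRF and -1.60 in siCEBPA cells). SPRED2, a Ras pathway inhibitor, fell under ICRF and was flat in siCEBPA cells (-1.21 under ICRF and 0.44 in siCEBPA cells). Rises of siCEBPA cells that were flat under ICRF included those of FOSL2, an AP-1 subunit (0.34 under ICRF and 1.77 in siCEBPA cells), IER3 (-0.18 under ICRF and 1.73 in siCEBPA cells) and IER5 (0.43 under ICRF and 1.24 in siCEBPA cells). Among 12 EGF ligands and ERBB receptors tested, 4 had a higher and 5 a lower response under ICRF, and 4 and 3 without scaling factors. AREG, a ligand of the EGF receptor and a target of estrogen and progestin in breast, had 19.6 and 20.3 CPM in ICRF progestin libraries, against 9.67 and 8.91 CPM in ICRF untreated libraries, and 4.2 and 4.44 CPM in siCEBPA progestin libraries, against 6.74 and 6.6 CPM in siCEBPA untreated libraries. HBEGF moved the same way (0.57 under ICRF and -0.85 in siCEBPA cells), while TGFA, another ligand, rose on both sides (1.53 under ICRF and 1.72 in siCEBPA cells).

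Luminal epithelial genes mostly fell under ICRF. Of 22 tested, 21 fell and 1 rose under ICRF, where 26.7% of all genes fell. In siCEBPA cells, where 27.4% of all genes fell, 13 of the 22 fell and 5 rose. In siControl cells 14 fell and 4 rose. The difference was lower under ICRF for 17 and higher for 2, with a median of -0.54, and the counts were 15 lower and 4 higher without scaling factors. SPDEF, an ETS factor of luminal and secretory cells, had 16.6 and 15.9 CPM in ICRF progestin libraries, against 124 and 122 CPM in ICRF untreated libraries, and 100.4 and 116 CPM in siCEBPA progestin libraries, against 140.3 and 157 CPM in siCEBPA untreated libraries. It fell by 2.92 ± 0.10 on the log2 scale under ICRF and by 0.46 ± 0.09 in siCEBPA cells. KRT19, a keratin of luminal cells, on chromosome 17, 41523617 to 41528308, had 826 and 786 CPM in ICRF progestin libraries, against 2153 and 2187 CPM in ICRF untreated libraries. It had 2844 and 3091 CPM in siCEBPA progestin libraries, against 1731 and 1769 CPM in siCEBPA untreated libraries, so that it fell on one side and rose on the other (difference -2.19 ± 0.07, adjusted p = 4.66e-13). TFAP2C, an AP-2 factor of luminal cells, was the gene that rose under ICRF (0.50 under ICRF and -1.27 in siCEBPA cells).

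FOXA1, the pioneer factor of steroid receptors, fell on both sides at like size (-1.97 under ICRF and -2.16 in siCEBPA cells), as did ELF5, an ETS factor of milk-forming cells (-1.38 under ICRF and -1.41 in siCEBPA cells). GATA3 responded by -1.09 under ICRF and -0.63 in siCEBPA cells, KRT18 by -1.68 under ICRF and -0.78 in siCEBPA cells and CLDN4, a claudin of tight junctions, by -0.45 under ICRF and 0.56 in siCEBPA cells. Of 16 basal and myoepithelial genes tested, 2 had a higher and 5 a lower response under ICRF, against 23.6% and 25.2% of all genes. Of 20 desmosome and tight junction genes, 3 were higher and 11 lower, a balance that stood at 8 higher and 7 lower without scaling factors. TJP3, a tight junction scaffold, fell under ICRF and was flat in siCEBPA cells (-1.62 under ICRF and -0.19 in siCEBPA cells).

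Estrogen-responsive genes, a list that shares PGR with others, had 14 members lower and 3 higher under ICRF of 25 tested. GREB1, a coregulator and target of the estrogen receptor, had 147 and 152 CPM in ICRF progestin libraries, against 187 and 189 CPM in ICRF untreated libraries, and 444 and 484 CPM in siCEBPA progestin libraries, against 211 and 214 CPM in siCEBPA untreated libraries. It was flat under ICRF (-0.33 ± 0.04) and rose in siCEBPA cells (1.12 ± 0.04). CA12, a carbonic anhydrase, moved in opposite directions (-0.70 under ICRF and 0.69 in siCEBPA cells), FHL2 fell under ICRF with a flat siCEBPA response (-1.14 under ICRF and 0.33 in siCEBPA cells), and CXCL12, a chemokine, fell on both sides (-2.18 under ICRF and -1.88 in siCEBPA cells).

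Ribosome biogenesis genes differed in direction between the sides. Of 20 genes that build ribosomal RNA and assemble its subunits, 16 fell and 0 rose under ICRF, while 18 rose and 0 fell in siCEBPA cells. The difference was lower under ICRF for 19 and higher for 0, with a median of -0.65. On both sides 15 genes passed the test with opposite signs, against 2181 of all 19003 genes. Single changes were small. NOP16, a nucleolar assembly factor, had 27.9 and 28.6 CPM in ICRF progestin libraries, against 35.6 and 36.4 CPM in ICRF untreated libraries, and 73.6 and 71.9 CPM in siCEBPA progestin libraries, against 38.6 and 39.9 CPM in siCEBPA untreated libraries. WDR43, of the processome of small subunits, had 48.8 and 47.5 CPM in ICRF progestin libraries, against 79.2 and 78.8 CPM in ICRF untreated libraries, and 84.4 and 84.7 CPM in siCEBPA progestin libraries, against 64.5 and 66.4 CPM in siCEBPA untreated libraries. In both genes the progestin and untreated libraries of a side did not overlap, and the sides differed in direction. DKC1, the pseudouridine synthase, responded by -0.53 under ICRF and 0.26 in siCEBPA cells, and FBL, the methyltransferase fibrillarin, by -0.13 under ICRF and 0.56 in siCEBPA cells.

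BOP1 had the largest difference of the list (-1.35 ± 0.19), with 34.6 and 31 CPM in ICRF progestin libraries, against 47.6 and 49.5 CPM in ICRF untreated libraries, and 46.4 and 59.6 CPM in siCEBPA progestin libraries, against 28.8 and 32.9 CPM in siCEBPA untreated libraries. NOP58 fell under ICRF and was not called in siCEBPA cells (-0.58 under ICRF and 0.00 in siCEBPA cells, adjusted p = 0.95 for siCEBPA), and PPAN, at 2.78 and 3.59 CPM in ICRF progestin libraries, passed no test on either side. In siControl cells 15 of the 20 rose and 2 fell, against 29.5% and 28.1% of all genes. The count of siCEBPA rises depended on the scaling: it was 18 with TMM or DESeq2 size factors, 12 with upper quartile scaling and 11 without scaling factors, with at most 1 fall. The count of differences that were lower under ICRF stayed between 17 and 19.

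**Figure D4:**
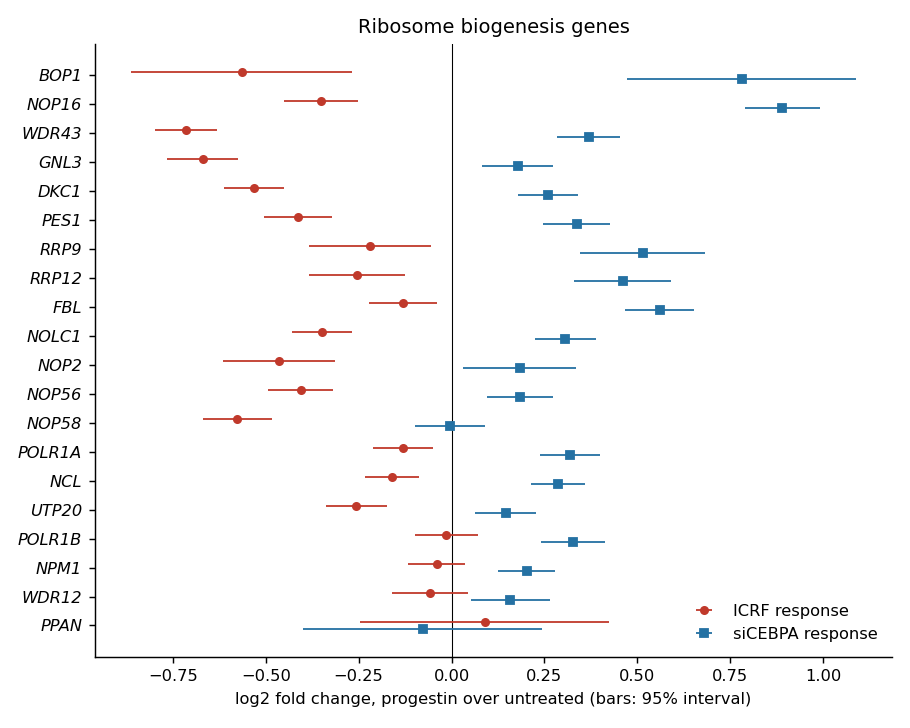
Progestin responses (log2 fold change, horizontal axis) of the 20 ribosome biogenesis genes under ICRF (red) and in siCEBPA cells (blue), with 95% intervals. The red points of 19 genes lie below 0 and left of the blue ones, and PPAN is the exception.

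Mitosis genes mostly fell in siCEBPA cells and moved both ways under ICRF. Of 33 mitosis genes, 10 rose and 11 fell under ICRF, 2 rose and 24 fell in siCEBPA cells, and 30 fell in siControl cells. The difference was higher under ICRF for 19 and lower for 5. CDK1, the mitotic kinase, had 560 and 565 CPM in ICRF progestin libraries, against 391 and 389 CPM in ICRF untreated libraries, and 173 and 163 CPM in siCEBPA progestin libraries, against 204 and 190.5 CPM in siCEBPA untreated libraries. It rose under ICRF (0.53 ± 0.04) and fell in siCEBPA cells (-0.23 ± 0.05). KIF2C, a kinesin that takes microtubules apart, did likewise (0.30 under ICRF and -0.39 in siCEBPA cells). Both genes stood higher in every ICRF library than in any siCEBPA library. Of 35 DNA replication and G1/S genes, 7 had a higher and 13 a lower response under ICRF, and 10 and 8 without scaling factors.

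GINS2, of the replicative helicase, was flat under ICRF and rose in siCEBPA cells (-0.09 under ICRF and 1.40 in siCEBPA cells), as did CCNE1, cyclin E1 (0.01 under ICRF and 1.06 in siCEBPA cells). CCND1, cyclin D1, had 100.4 and 102 CPM in ICRF progestin libraries, against 79.6 and 78.7 CPM in ICRF untreated libraries, and 308 and 296 CPM in siCEBPA progestin libraries, against 165 and 169.7 CPM in siCEBPA untreated libraries. It rose on both sides, by 0.35 ± 0.04 under ICRF and by 0.85 ± 0.04 in siCEBPA cells. BTG1, an antiproliferative factor, had 164 and 169 CPM in ICRF progestin libraries, against 169 and 163 CPM in ICRF untreated libraries, and 90.2 and 82.9 CPM in siCEBPA progestin libraries, against 251 and 234 CPM in siCEBPA untreated libraries, a flat response under ICRF and a fall in siCEBPA cells. BTG2 and CDK6 rose at like size (1.15 under ICRF and 1.33 in siCEBPA cells for BTG2).

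Genes of the p53 pathway and of DNA-protein crosslink repair moved in both directions. Of 24 p53 targets tested, 12 rose and 6 fell under ICRF, and 7 rose and 13 fell in siCEBPA cells. TP53INP1 had 106 and 116 CPM in ICRF progestin libraries, against 56.4 and 54.7 CPM in ICRF untreated libraries, and 46.1 and 40.8 CPM in siCEBPA progestin libraries, against 65.4 and 63.5 CPM in siCEBPA untreated libraries. SESN1, a stress-induced brake on mTORC1, responded by 0.92 under ICRF and -0.63 in siCEBPA cells, and ZMAT3 by 0.98 under ICRF and -0.80 in siCEBPA cells. CDKN1A, the cell cycle inhibitor p21, was not called under ICRF (0.07, adjusted p = 0.16) and rose in siCEBPA cells (0.71). MDM2, the ligase that degrades p53, was not called under ICRF either (0.07, adjusted p = 0.119). SPRTN, the protease of DNA-protein crosslinks, had 100.4 and 101 CPM in ICRF progestin libraries, against 48.9 and 49 CPM in ICRF untreated libraries, and 51.7 and 54.3 CPM in siCEBPA progestin libraries, against 50.2 and 51.5 CPM in siCEBPA untreated libraries. It rose by 1.04 ± 0.04 under ICRF and was flat in siCEBPA cells. TDP2, which removes topoisomerase II from DNA ends, responded by 0.28 under ICRF and -0.20 in siCEBPA cells.

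Lipid genes more often had a lower than a higher response under ICRF. Of 23 cholesterol genes tested, 16 had a lower and 2 a higher response, with a median of -0.36. Of 24 fatty acid genes, 13 were lower and 5 higher, with a median of -0.43. Without scaling factors 13 cholesterol genes were lower and 5 higher, and 12 fatty acid genes were lower and 8 higher. SREBF1, the master factor of fatty acid synthesis, had 95.4 and 91 CPM in ICRF progestin libraries, against 144 and 143 CPM in ICRF untreated libraries, and 366 and 427 CPM in siCEBPA progestin libraries, against 129 and 131 CPM in siCEBPA untreated libraries. It fell under ICRF and rose in siCEBPA cells (-0.62 under ICRF and 1.61 in siCEBPA cells). SQLE, squalene epoxidase, was flat under ICRF and rose in siCEBPA cells (-0.07 under ICRF and 1.24 in siCEBPA cells). ACACA, which makes malonyl-CoA, moved in opposite directions (-0.40 under ICRF and 0.69 in siCEBPA cells), and GPAM, of triglyceride synthesis, in the other sense (1.29 under ICRF and -0.48 in siCEBPA cells).

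Glucose genes showed single steps that were kept on one side. Of 19 glycolysis and hypoxia genes tested, 12 had a lower and 5 a higher response under ICRF, and 10 and 7 without scaling factors. PFKFB3, a driver of glycolysis, rose on both sides (2.31 under ICRF and 3.40 in siCEBPA cells). HK2, hexokinase 2, had 22.1 and 23.1 CPM in ICRF progestin libraries, against 19 and 18.4 CPM in ICRF untreated libraries, and 68.3 and 73.8 CPM in siCEBPA progestin libraries, against 17.4 and 17.6 CPM in siCEBPA untreated libraries, flat under ICRF. ALDOC, an aldolase, was the reverse, with 81.3 and 80 CPM in ICRF progestin libraries, against 29.3 and 28.9 CPM in ICRF untreated libraries, and 60.1 and 57.6 CPM in siCEBPA progestin libraries, against 67.3 and 67.7 CPM in siCEBPA untreated libraries. EGLN3, an oxygen sensor, fell under ICRF and was flat in siCEBPA cells (-1.53 under ICRF and -0.10 in siCEBPA cells).

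Ion transport and the clock were mixed. Of 18 epithelial ion transport genes tested, 4 had a higher and 10 a lower response under ICRF. ATP1B1, the β subunit of the sodium pump, rose on both sides at like size (1.91 under ICRF and 1.69 in siCEBPA cells). NEDD4L, the ligase that removes sodium channels, fell under ICRF and rose in siCEBPA cells (-0.76 under ICRF and 1.14 in siCEBPA cells), and WNK4, a kinase of salt transport, did the reverse (0.90 under ICRF and -0.66 in siCEBPA cells). Of 18 clock genes, 8 were higher and 6 lower. NR1D2, the repressor REV-ERBβ, was flat under ICRF and fell in siCEBPA cells (0.31 under ICRF and -1.28 in siCEBPA cells).

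Stress lists were mixed as well. Of 23 ATF4 amino acid stress genes, 12 had a higher and 9 a lower response under ICRF. PSAT1, of serine synthesis, had 149 and 141 CPM in ICRF progestin libraries, against 71.3 and 67.8 CPM in ICRF untreated libraries, and 46.7 and 48.2 CPM in siCEBPA progestin libraries, against 71.3 and 72.1 CPM in siCEBPA untreated libraries. Of 17 unfolded protein response genes, 3 were higher and 8 lower, and without scaling factors 6 and 5. Of 15 heat shock genes, 6 were higher and 7 lower, or 8 and 5 without scaling factors. HSPA1A, the inducible HSP70, rose on both sides (2.81 under ICRF and 1.72 in siCEBPA cells), with counts that are uncertain because of its near-identical neighbour HSPA1B. HSPB1, a small heat shock protein, fell under ICRF and rose in siCEBPA cells (-0.64 under ICRF and 1.02 in siCEBPA cells). Of 27 interferon-stimulated genes, 3 were higher and 2 lower, and of 13 mitochondrially encoded messenger RNAs, 1 was higher. Of 21 tested G1 cyclins, CDK inhibitors and antiproliferative genes, 9 were higher and 8 lower, and of 15 topoisomerase and crosslink repair genes, 7 were higher and 6 lower. Of the 9 tested fibroblast, endothelial and blood cell genes, 1 was higher and 1 lower.

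**Figure D5:**
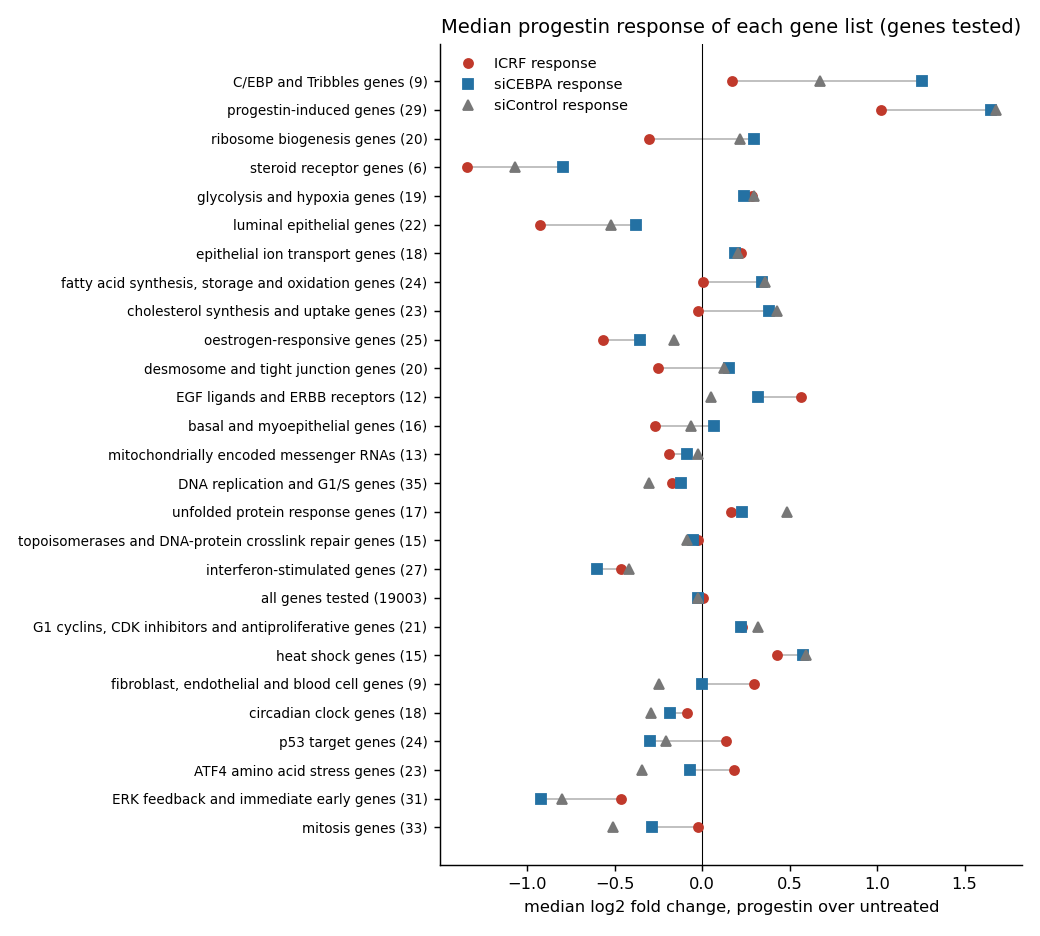
Median progestin response (log2 fold change, horizontal axis) of each gene list under ICRF (circles), in siCEBPA cells (squares) and in siControl cells (triangles), with the number of genes tested in brackets. Lists run by the median difference of responses, lowest at the top. C/EBP and progestin-induced genes have the widest gaps, and ribosome biogenesis genes lie on opposite sides of 0.

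Gene span, from the first to the last annotated base, was examined because topoisomerase II acts along transcribed DNA. Among the 1188 genes tested of 200 kb and over, 38.0% had a lower and 16.8% a higher response under ICRF, with a median difference of -0.13. Genes under 10 kb also leaned lower, with 19.2% lower and 13.9% higher of 6048 and a median of -0.05. Among the 7152 genes of 10 to 50 kb the shares were 25.5% lower and 29.3% higher, with a median of 0.04, and among the 4615 of 50 to 200 kb 29.4% lower and 29.1% higher, with a median of 0.01. The ICRF response itself was a fall for 39.9% of the genes of 200 kb and over, against 31.0% in siCEBPA cells. Rises kept in siCEBPA cells and flat under ICRF made up 3.45% of these long genes and 1.19% of those of 10 to 50 kb. No test was made of these differences.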

How the data were processed

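RNA-seq libraries of T47D cells were read as deposited: the authors' gene counts are raw counts of reads per gene, made with featureCounts 1.5.1, per the file headers. The file headers also name GENCODE 24, and the submitters' processing notes name hg38, STAR and Trimmomatic. The 12 count files held 60554 genes each, of which 55413 matched a symbol (99.852% of counts), and no unassigned reads. Genes past edgeR's filter on low counts (19003) were fitted over all 12 libraries, so that the 6 groups share the estimate of spread, with edgeR 4.0.16 in R 4.3.3 (TMM scaling, quasi-likelihood test, Benjamini-Hochberg adjustment, threshold 0.05). Errors are standard errors, here the fold change over the root of the F statistic. The fit was tested on simulated data. Replicates differed by a mean chi-square of 4.35 to 14.1 per gene, more than counting error. Alternatives used other scalings, filters, DESeq2 1.42.0, limma 3.58.1 and libraries left out. The members and gene lists were chosen with earlier results of these data known. Named genes are the 8 largest differences in each class above 5 CPM in a group, 4 like-size rises and falls, and the 4 smallest p in each list. Other list members are examples chosen after their values were seen. Some genes that this rule names are not reported here.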

Additional observations from a re-analysis of the deposited data

Results flagged for a closer look

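Given here are the 16 genes named from the classes of opposite responses, in which both responses were at least 1.5-fold and the difference itself passed edgeR's quasi-likelihood test. Members of the gene lists that moved in opposite directions stand in the report. Values are the ICRF response minus the siCEBPA response on the log2 scale. Rises under ICRF against falls in siCEBPA cells were found for SP4 (3.31), HELB (3.21), EFNB2 (2.98), TMEM47 (2.92), ZC3H6 (2.92), ZNF365 (2.9), SLC7A11 (2.83) and ZCCHC24 (2.65). Falls under ICRF against rises in siCEBPA cells were found for FJX1 (-2.81), PRKCD (-2.78), CACNG4 (-2.65), NIPAL4 (-2.49), TSKU (-2.46), CXXC5 (-2.44), RAI1 (-2.37) and SRRM3 (-2.28). The experiment and ICRF cannot be told apart in these differences.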

How the results depend on the processing

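Of 153 named genes under 23 settings, 0 called differences changed sign where the gene was tested. TP63, KDR and PDGFRB were not tested with a filter at a mean of 1 CPM. Of the 142 that were called, 5 lost the call in some setting: FGD3, NDRG1, TOP2B, PDGFRB and IRF1. The count of differences, 9275, was 9289 with DESeq2 size factors, 9469 without scaling factors, 8780 with DESeq2, 9133 with limma-voom, 9219 with the 8 libraries alone and 9034 with ICRF libraries thinned. Leaving out 1 library gave 8429 to 9357 differences (3647 to 4508 higher, 4361 to 5011 lower). It gave 9553 to 11228 ICRF calls, 9431 to 10948 siCEBPA calls and 9281 to 11172 siControl calls. In that order, ICRF-only rises and falls ran from 116 to 182 and 124 to 167, siCEBPA-only rises and falls from 236 to 306 and 108 to 166, opposite genes from 149 to 183 and 110 to 144, and like-size genes from 79 to 113 and 58 to 71.

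Class sizes followed their definitions. Without scaling factors there were 183 siCEBPA-only rises, 250 siCEBPA-only falls and 275 and 77 opposite genes, and the cause was not tested. A kept bound of 1.5-fold gave 759 and 497 ICRF-only rises and falls, 765 and 507 siCEBPA-only ones, and 330 and 239 of like size. A narrower flat bound gave 55, 41, 92 and 35 in the order of these 4 classes, and a flat bound of 2-fold gave 315, 283, 564 and 389. Where flat meant an adjusted p of 0.05 or more, there were 294 ICRF-only rises, 280 siCEBPA-only rises and 328 siCEBPA-only falls. Standard errors from the fitted weights, an alternative chosen after seeing the data, gave 106 and 66 genes of like size.

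With the replicate number as a block the fit called 9794 differences, of which 9248 were among the 9275. The numbers were not taken to pair the libraries. Deviations of same-numbered progestin and untreated libraries correlated at 0.048 under ICRF and 0.478 in siCEBPA cells, with 2 pairs a side. Across arms the correlations ran from -0.357 (ICRF progestin with siControl untreated) to 0.506 (siCEBPA progestin with siControl untreated). The source of these shared deviations was not tested. The siCEBPA set was counted less deeply, so flat siCEBPA responses of low genes were harder to show. With ICRF libraries thinned to siCEBPA depth, ICRF-only rises and falls stood at 174 and 133, against 173 and 133 unthinned. The siCEBPA-only ones then stood at 258 and 127, against 274 and 148.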
